A study of Homo sapiens with 6 samples.

Results

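The genes described here encode the proteasome, the protease complex that degrades ubiquitin-tagged proteins, together with the factors that assemble and regulate it. Members were all genes of the count tables whose symbol starts with PSM, a letter from A to G and a number, and 49 of 23228 genes matched. Of these, 48 encode proteasome subunits or factors, and PSMC3IP, a meiotic recombination factor, matched by its name only. The RNA came from HEC-1-A, an established human endometrial carcinoma cell line. The cells were kept for 24 hours in serum-containing McCoy's 5A medium without SMIP34 (control, 3 libraries) or with 20 µM SMIP34 (3 libraries), a small molecule inhibitor of the PELP1 oncoprotein. The labels name only medium for the controls, whereas the study's methods name vehicle. All 6 libraries come from this 1 line, and nothing states that replicates were separate cultures, so p-values measure only the spread between these libraries.

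The 20S core is a barrel of stacked rings, in which PSMA genes encode the outer alpha rings and PSMB genes the inner beta rings that hold the active sites. The 19S cap binds the ends of the barrel, with a base of PSMC ATPases that unfold substrates and a lid that removes ubiquitin. Alternative caps (PSME genes), alternative active-site subunits made in response to interferon, and assembly chaperones (PSMG genes) complete the family. In tumor cells the complex is known mainly as the target of proteasome inhibitor drugs.

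Library totals ranged from 19562711 to 22014835 estimated counts, and the members took 0.633% to 0.654% of them. Levels are given in CPM, counts scaled to the effective library size (total count times TMM factor), and changes as log2 fold changes of SMIP34 over control. All 7 epithelial markers were expressed, with control levels per kb of exon from 43.5 to 1015 CPM. Of 10 leukocyte, endothelial and stromal markers, 7 were too low to test, and CD68, COL1A1 and DES had at most 4.53 CPM in any library. Of these COL1A1 passed, with 3.04, 2.71 and 3.13 CPM in the controls and 4.19, 3.84 and 4.53 CPM with SMIP34 (log2 fold change 0.50, adjusted p = 0.0151), and its part in the results was not tested. PELP1, the target of SMIP34, measured 133, 146 and 138 CPM in the controls and 158, 159 and 151 CPM with SMIP34, a log2 fold change of 0.16 (SE 0.035, adjusted p = 0.000746). The treated libraries thus held more PELP1 mRNA, with no overlap between groups. The mRNA level does not report the protein.

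Of the 49 genes, 47 had enough counts to be tested. PSMA8, a testis subunit, had 0 counts in every library, which allows up to 0.136 to 0.153 CPM by counting error alone. PSMB11, the thymus subunit, had at most 2 counts in a library. At an adjusted p under 0.05, 14 of the 47 were lower with SMIP34, beside 17.2% of all 13408 genes tested. In the other direction 7 were higher, beside 17.4% of all genes, and 26 did not pass. The 14 lower calls became 6 without control replicate 2, 7 without SMIP34 replicate 2, and 9 without control replicate 1 or without SMIP34 replicate 3, and the 7 higher calls became 4 without SMIP34 replicate 3. Over all genes, lower calls went from 2306 to 1805, 1833, 1919 and 1911 in the same order of fits. Higher calls over all genes went from 2339 to 1994 without SMIP34 replicate 3. Only PSMB8 and PSMB9 also passed an absolute log2 fold change of 0.5, beside 3.31% of all genes. Changes were therefore small: the median log2 fold change was -0.015 over the 47 members and -0.0022 over all genes tested, and the median size without sign was 0.083 for members and 0.12 for all genes.

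The calls are given here by part of the complex, to be set beside 17.2% lower and 17.4% higher over all genes tested. In the 20S core, 6 of 14 tested genes were lower and 0 higher, with a median log2 fold change of -0.067. The 6 lower calls became 1 without control replicate 2, and 2 without SMIP34 replicate 2 or without SMIP34 replicate 3. In the 19S cap, 6 of 17 were higher and 1 lower, with a median of 0.058. The 6 higher calls became 3 without SMIP34 replicate 3. The subunits exclusive to the immunoproteasome were all 3 lower. With scaling by library size only, the 47 genes gave 10 lower and 12 higher calls, against 14 and 7 with TMM. All 13408 genes gave 1949 lower and 2757 higher, against 2306 and 2339 with TMM. With scaling by library size only, the core had 3 lower and 2 higher, and the cap 1 lower and 9 higher. These counts also shift when the trend of fold change with exon length is removed, as described after the single genes.

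**Figure D1:**
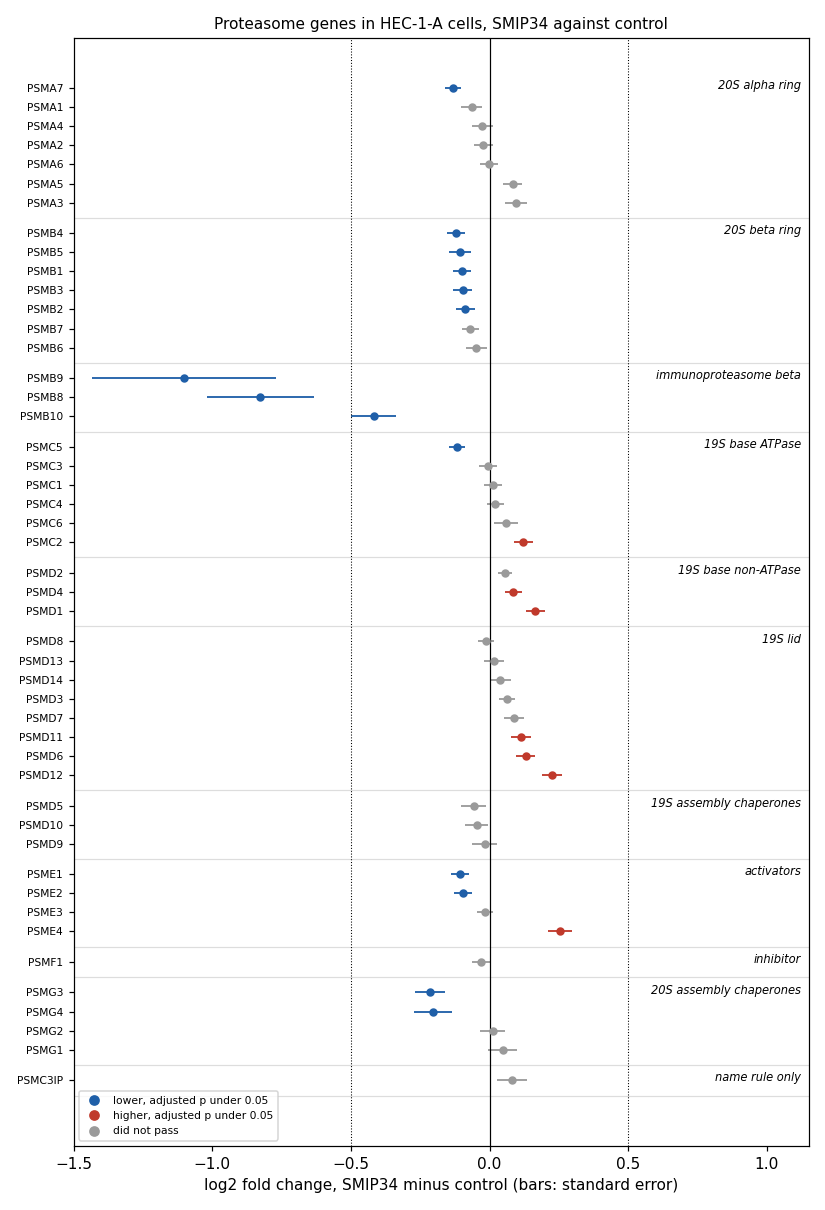
Log2 fold change of SMIP34 over control (x axis) for the 47 tested genes, grouped by role, with standard errors as bars and dotted lines at 0.5 in either direction. Blue points were lower (14 genes) and red points higher (7 genes) at an adjusted p under 0.05, grey points did not pass, and only PSMB8 and PSMB9 lie beyond a dotted line.

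The next values are levels in the control cells. Per kb of exon, the constitutive subunits of core and cap ranged from 29.3 CPM for PSMC2 to 338 CPM for PSMB4. The core genes had a median of 156 CPM per kb and the cap genes 82.6 CPM per kb. The immunoproteasome genes were far below, at 2.98 CPM per kb for PSMB8, 2.75 for PSMB9 and 26.5 for PSMB10. Among the activators PSME1 and PSME2, which form a heteromeric ring, were close in level at 172 and 168 CPM per kb, whereas PSME4 was at 7.78 CPM per kb.

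**Figure D2:**
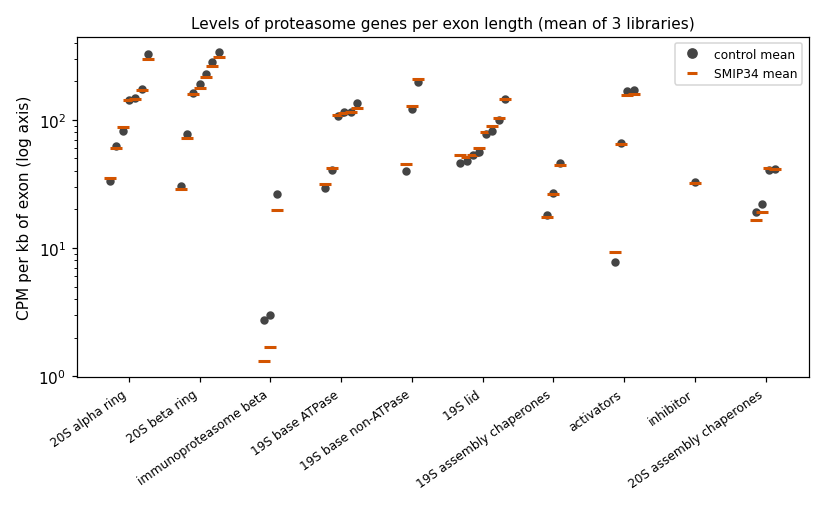
Level of each tested proteasome gene in CPM per kb of exon (log y axis), grouped by role, with black points for the control mean and orange bars for the SMIP34 mean of 3 libraries. PSMB4 is highest, PSMB8 and PSMB9 are lowest, and for most genes the orange bar lies close to the black point.

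In the alpha ring, which gates entry to the barrel, only PSMA7 of 7 tested genes passed. PSMA7 measured 323, 331 and 314 CPM in the controls and 287, 292 and 305 CPM with SMIP34, a log2 fold change of -0.13 (SE 0.030, adjusted p = 0.00102). All treated values lay under all control values. PSMA3 had the highest log2 fold change of the ring, 0.095, and did not pass (adjusted p = 0.0566). The remaining 5 genes lay between -0.064 and 0.083 on the log2 scale.

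All 7 constitutive beta ring genes had a log2 fold change below 0, from -0.12 to -0.048, and 5 passed. Over all genes tested, 6774 of 13408 were below 0 and 17.2% were called lower. PSMB4, a structural beta subunit, was furthest from 0 with 311, 330 and 297 CPM in the controls and 295, 285 and 282 CPM with SMIP34 (log2 fold change -0.12, SE 0.033, adjusted p = 0.00511). Its treated libraries were all below the controls, but the gap between the lowest control and the highest treated library was small. The active-site subunits are PSMB5 (chymotrypsin-like), PSMB6 (caspase-like) and PSMB7 (trypsin-like). PSMB5 measured 114, 118 and 105 CPM in the controls and 105, 103 and 104 CPM with SMIP34 (log2 fold change -0.11, SE 0.039, adjusted p = 0.0315). The lowest control and the highest treated library overlapped. PSMB6, with a log2 fold change of -0.048 (adjusted p = 0.341), and PSMB7, with -0.070 (adjusted p = 0.0837), did not pass. The other genes that passed were PSMB1, PSMB2 and PSMB3, at -0.10, -0.088 and -0.098 on the log2 scale. Without control replicate 2 none of the 7 passed, and without SMIP34 replicate 2 or without SMIP34 replicate 3 only 1 did.

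The inducible active-site subunits replace their constitutive partners to form the immunoproteasome, which favors peptides suited to MHC class I. PSMB10, the partner of PSMB7, had the smallest adjusted p among the lower members. PSMB10 (chromosome 16, 67968407-67970780, minus strand, hg19) measured 26.2, 31.0 and 22.8 CPM in the controls and 20.6, 20.1 and 19.3 CPM with SMIP34. The treated libraries lay close together under all controls, and the controls were spread more widely. The log2 fold change was -0.42 (SE 0.081, adjusted p = 0.000223), and the mean fell by 25.1%. Relative to PSMB7 per kb of exon, PSMB10 stood at 11.2%, 13.1% and 10.4% in the controls and at 9.37%, 9.31% and 8.68% with SMIP34. The 250 bases before its RefSeq start (GRCh38.p14, chr16:67936851-67937100, minus strand) are shown. Capitals mark the letters GAAANNGAA, the core of the element bound by interferon-responsive factors. Sequences are printed only for genes that kept their call in every fit described below and whose window held these letters or those marked for PSMD12. PSMD1 and PSMD6 also kept their call, but their windows held neither set of letters, so they are not shown.
PSMB10: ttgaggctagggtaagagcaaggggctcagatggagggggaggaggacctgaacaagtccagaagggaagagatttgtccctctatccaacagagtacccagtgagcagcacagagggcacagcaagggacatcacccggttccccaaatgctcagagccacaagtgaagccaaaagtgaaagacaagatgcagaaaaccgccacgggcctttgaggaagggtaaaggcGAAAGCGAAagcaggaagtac

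PSMB8 and PSMB9, the partners of PSMB5 and PSMB6, passed both thresholds but were measured at very low levels. PSMB8 measured 4.22, 6.16 and 5.44 CPM in the controls and 1.73, 3.75 and 3.51 CPM with SMIP34 (log2 fold change -0.83, SE 0.19, adjusted p = 0.00154). All treated values lay under all controls. Without SMIP34 replicate 1 the log2 fold change was -0.55 (adjusted p = 0.0194). PSMB9 measured 1.80, 5.20 and 1.64 CPM in the controls and 1.41, 1.11 and 1.57 CPM with SMIP34 (log2 fold change -1.10, SE 0.33, adjusted p = 0.0108). The difference rests on control replicate 2, and without it the log2 fold change was -0.33 (adjusted p = 0.393). Without SMIP34 replicate 2 it was -0.97 (adjusted p = 0.0529). Both genes lie in the MHC region, which is annotated at 8 places on the primary and alternative chromosome 6 sequences, so reads were split between copies, and 5 of 6 libraries hold fractional counts for each. The split's part in the result was not tested, and both genes lost their call in DESeq2, at a log2 fold change of -0.82 for PSMB8 (adjusted p = 0.0747) and -1.08 for PSMB9 (adjusted p = 0.161).

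**Figure D3:**
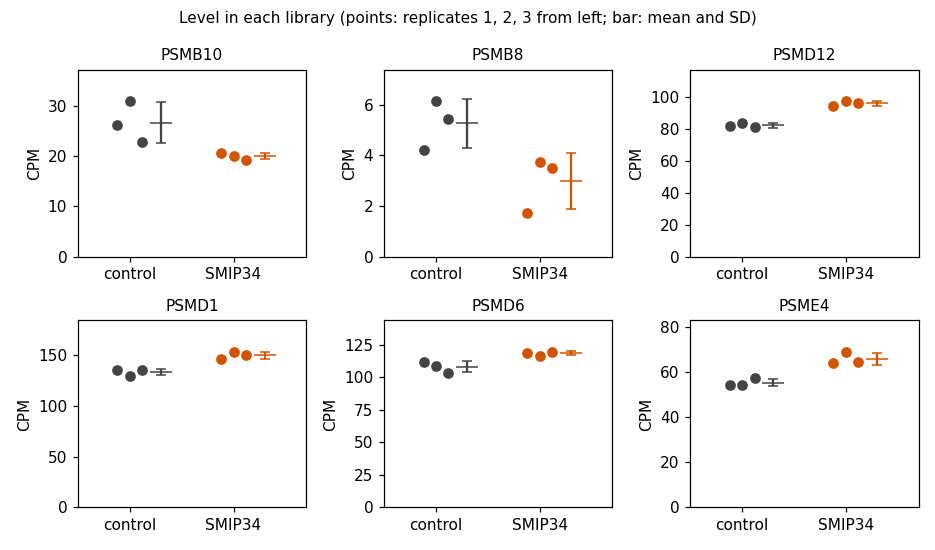
Level in CPM (y axis, from 0) of 6 genes in each control and SMIP34 library, with points for replicates 1, 2 and 3 and a bar for mean and SD. PSMB10 and PSMB8 are lower in every treated library than in any control, and PSMD12, PSMD1, PSMD6 and PSME4 are higher.

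All but 1 of the higher members belong to the 19S cap. Its non-ATPase base gene PSMD1, a large scaffold subunit, measured 136, 130 and 136 CPM in the controls and 146, 154 and 150 CPM with SMIP34 (log2 fold change 0.17, SE 0.033, adjusted p = 0.000276). PSMD4, a ubiquitin receptor, passed with 0.085 (adjusted p = 0.0335), and PSMD2 did not with 0.055 (adjusted p = 0.0933). Of the 6 ATPases PSMC2 was higher, with 95.3, 92.4 and 94.1 CPM in the controls and 102, 100.1 and 105 CPM with SMIP34 (log2 fold change 0.12, adjusted p = 0.00801). PSMC5 was lower, with 217, 221 and 212 CPM in the controls and 200.3, 199.6 and 199.3 CPM with SMIP34 (log2 fold change -0.12, adjusted p = 0.00216). For both the groups did not overlap. The other 4 ATPases did not pass.

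In the lid, 7 of 8 genes had a log2 fold change above 0 and 3 passed. Over all genes tested, 6634 of 13408 were above 0 and 17.4% were called higher. PSMD12, a structural lid subunit (chromosome 17, 65336619-65362721, minus strand, hg19), measured 81.8, 83.9 and 81.5 CPM in the controls and 94.8, 97.9 and 96.4 CPM with SMIP34. The groups lay far apart, with a log2 fold change of 0.23 (SE 0.036, adjusted p = 1.76e-05), the smallest p among all members. PSMD6 measured 112, 109 and 103 CPM in the controls and 118, 116 and 120 CPM with SMIP34 (log2 fold change 0.13, adjusted p = 0.00518). PSMD11, another structural subunit, was at 0.11 (adjusted p = 0.0136). PSMD8 was lowest at -0.013 (adjusted p = 0.77). PSMD14, the deubiquitinase of the lid, had 0.039 (adjusted p = 0.481). The 19S assembly chaperones PSMD5, PSMD9 and PSMD10 were at -0.057, -0.019 and -0.047 on the log2 scale, and 0 of 3 passed. The bases before the PSMD12 start (GRCh38.p14, chr17:67366578-67366827, minus strand) are shown by the same rule as for PSMB10. Capitals mark TGACNNNGC, the core of the antioxidant response element, which NFE2L1 and NFE2L2 can bind.
PSMD12: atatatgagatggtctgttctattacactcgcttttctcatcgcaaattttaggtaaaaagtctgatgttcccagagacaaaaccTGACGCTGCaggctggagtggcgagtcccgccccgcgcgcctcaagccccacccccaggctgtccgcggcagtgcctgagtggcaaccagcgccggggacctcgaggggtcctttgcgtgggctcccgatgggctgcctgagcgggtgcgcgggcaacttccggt

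Summed over genes, the 17 cap genes measured 2819, 2815 and 2765 CPM in the controls and 2855, 2910 and 2915 CPM with SMIP34, with no overlap. The core genes summed to 2597, 2647 and 2457 CPM in the controls and 2482, 2408 and 2478 CPM with SMIP34, and the groups overlapped. The ratio of core to cap was 0.921, 0.940 and 0.889 in the controls and 0.869, 0.828 and 0.850 with SMIP34, without overlap. These ratios are a description, and the ratio was not given a p since the parts were chosen with results known.

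**Figure D4:**
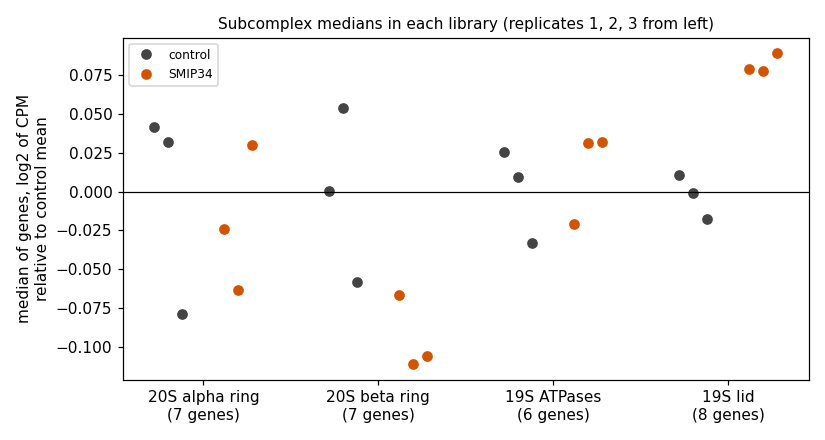
Median over the genes of 4 subcomplexes of log2 CPM relative to the control mean (y axis), 1 point per library. The lid is higher in every treated library than in any control, the beta ring is lower in every treated library than in any control, and the alpha ring and ATPases overlap.

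The activators bind the ends of the barrel in place of the cap. PSME1 and PSME2, which form the interferon-inducible PA28 ring, were both lower, at -0.11 (SE 0.033, adjusted p = 0.0116) and -0.098 (SE 0.033, adjusted p = 0.021). PSME1 measured 206, 209 and 190.5 CPM in the controls and 189, 184 and 188 CPM with SMIP34. It lost its call without control replicate 1, without control replicate 2 or without SMIP34 replicate 2. PSME2 lost its call without control replicate 1 or without SMIP34 replicate 2. With scaling by library size only PSME2 did not pass either (adjusted p = 0.0617). PSME3, the nuclear form of the activator, did not pass (-0.015, adjusted p = 0.729). PSME4, the large nuclear activator PA200 (chromosome 2, 54091204-54197977, minus strand, hg19), measured 54.3, 54.3 and 57.2 CPM in the controls and 64.2, 69.0 and 64.3 CPM with SMIP34. All treated libraries stood above all controls, with a log2 fold change of 0.25 (SE 0.043, adjusted p = 5.16e-05), the highest of the family. Its start is preceded by the following bases (GRCh38.p14, chr2:53970994-53971243, minus strand), with the same element as in PSMD12 in capitals, here on the opposite strand.
PSME4: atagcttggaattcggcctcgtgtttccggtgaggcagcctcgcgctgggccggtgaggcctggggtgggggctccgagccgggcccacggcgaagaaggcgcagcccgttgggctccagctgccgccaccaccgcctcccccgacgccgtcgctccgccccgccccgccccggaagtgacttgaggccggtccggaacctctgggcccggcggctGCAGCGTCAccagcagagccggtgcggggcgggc

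PSMF1, the proteasome inhibitor PI31, did not pass (-0.032, adjusted p = 0.482). Of the 20S assembly chaperones, which act in the pairs PSMG1 with PSMG2 and PSMG3 with PSMG4, the second pair was lower. PSMG3 measured 31.0, 31.8 and 30.4 CPM in the controls and 26.4, 27.1 and 26.8 CPM with SMIP34 (log2 fold change -0.21, SE 0.055, adjusted p = 0.00351). PSMG4 measured 20.2, 20.6 and 19.2 CPM in the controls and 17.4, 17.5 and 17.0 CPM with SMIP34 (log2 fold change -0.21, SE 0.069, adjusted p = 0.0212). Neither gene overlapped between groups. PSMG4 lost its call with DESeq2 (adjusted p = 0.0758). It also lost it without control replicate 1, without control replicate 2 or without SMIP34 replicate 3. PSMG3 kept its call in these fits. PSMG1 (0.047, adjusted p = 0.526) and PSMG2 (0.011, adjusted p = 0.879) did not pass. PSMC3IP, the gene matched by name, had 0.081 (adjusted p = 0.269).

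Fold change in these libraries moved with exon length across all genes. With genes placed in 10 bins of equal size by exon length, the median log2 fold change was -0.10 in the bin of shortest genes and 0.11 in the bin of longest genes. The 47 tested members had a median of 1539 bases of exon beside 3002 for all genes tested, and the 2 bins of shortest genes held 15 and 16 of them. Members called lower had a median length of 1045 bases and those called higher 1797 bases. Across the 47 genes, which share the same 6 libraries, log2 fold change and log2 exon length had a Pearson correlation of 0.30 and a Spearman correlation of 0.42, given as a description. Exon GC content and log2 fold change had a Pearson correlation of -0.46 across the same genes. With offsets on GC content alone, 10 members were lower and 8 higher, beside 2103 and 2332 of all 13408 genes. With offsets that removed the length trend of each library, 5 members were lower and 17 higher, and the median over the members was 0.052. The 17 include PSMC3IP, matched by its name only (log2 fold change 0.15, adjusted p = 0.025). Over all genes the length offsets gave 2006 lower and 2228 higher, against 2306 and 2339 without offsets. The median of the core turned from -0.067 to 0.015, with 1 lower and 2 higher, and that of the cap rose to 0.10, with 0 lower and 13 higher. The beta ring kept only PSMB2 among its lower calls. PSMA7, PSMC5, PSME1, PSME2 and PSMG4 lost theirs, and PSMG3 kept its call (adjusted p = 0.0407).

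**Figure D5:**
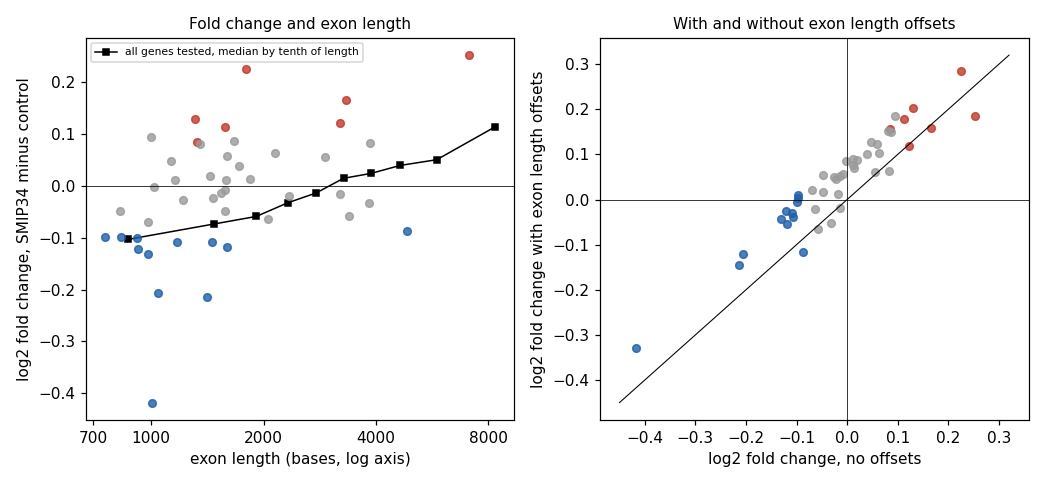
Left, log2 fold change (y axis) against exon length (log x axis) of 45 tested members, PSMC3IP included, with black squares for the median of all genes in 10 bins by length. Right, log2 fold change with exon length offsets (y axis) against that without (x axis), where the line marks equality. PSMB8 and PSMB9 are left out of both for scale. Most points lie above the line on the right, and the lowest point on both sides is PSMB10.

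Of the 21 members called, 5 passed in all 21 alternative fits with other scalings, tools, filters, offsets or a library left out: PSMB10, PSMD12, PSMD1, PSMD6 and PSME4. The log2 fold change over these fits lay between -0.52 and -0.29 for PSMB10, 0.18 and 0.29 for PSMD12, 0.15 and 0.18 for PSMD1, 0.10 and 0.20 for PSMD6, and 0.16 and 0.28 for PSME4. A further 14 kept their sign in every fit but not their call, and PSME2 and PSMB3 changed sign under the length offsets.

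Genes that work with the proteasome were described from lists set for this purpose. Their tested genes had a median exon length of 1932 bases for the associated factors and 3340 for the NFE2L1 pathway. The median was 3507 for the ubiquitin list and 3817 for the MHC class I list, beside 1539 for members and 3002 for all genes. The part of exon length in the counts of these lists was not tested. Of 13 further subunits and associated factors, 3 were higher, beside 17.4% of all genes, and 1 was lower, beside 17.2%. ADRM1, the ubiquitin receptor of the cap, had a log2 fold change of 0.10 (adjusted p = 0.0353), and its groups overlapped. UCHL5, the deubiquitinase that binds it, was highest at 0.14 (adjusted p = 0.00216). SHFM1, which encodes the small lid subunit DSS1, was lowest at -0.17 (adjusted p = 0.00285) and lost its call with the length offsets. POMP, which matures the 20S core, and USP14, a cap deubiquitinase, did not pass at -0.025 and 0.024.

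NFE2L1 is the factor that induces proteasome genes when the protease is inhibited, after processing by DDI2 and NGLY1 at the endoplasmic reticulum. Of 9 genes of this pathway, 7 were higher and 0 lower, with a median of 0.22, beside 17.4% higher and 17.2% lower over all genes. NFE2L1 itself measured 293, 295 and 295 CPM in the controls and 297, 300.2 and 289 CPM with SMIP34 (log2 fold change 0.0066, adjusted p = 0.88). MAFK, a small MAF partner of NFE2L1, measured 25.6, 24.7 and 25.8 CPM in the controls and 35.4, 36.0 and 36.7 CPM with SMIP34 (log2 fold change 0.51, SE 0.054, adjusted p = 5.24e-08). It was the only gene of the list past 0.5. NFE2L2, the related antioxidant factor, was lowest at -0.080 and did not pass (adjusted p = 0.0705).

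Of 14 ubiquitin genes, ubiquitin-activating enzymes and shuttle factors 13 could be tested, of which 7 were higher and 2 lower, again beside 17.4% and 17.2% of all genes. UBB, a polyubiquitin gene, is listed at 1 to 3 counts and was not tested. UBQLN1, a shuttle to the proteasome, was highest at 0.20 (adjusted p = 2.75e-06), and RPS27A, a fusion of ubiquitin with a ribosomal protein, was lowest at -0.23 (adjusted p = 1.02e-05). Both passed in all alternative fits.

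Of 12 tested genes of MHC class I antigen processing, which uses proteasome products, 5 were higher and 1 lower, where all genes gave 17.4% and 17.2%. IRF1, an interferon-responsive factor, measured 23.7, 23.9 and 25.2 CPM in the controls and 33.4, 35.9 and 36.7 CPM with SMIP34 (log2 fold change 0.54, adjusted p = 4.99e-08). HLA-B passed at 1.76 (adjusted p = 0.0206), but this rests on SMIP34 replicate 3, with 12.2 CPM against 1.16 to 1.96 CPM in the other 5 libraries, and without it the value was -0.21 (adjusted p = 0.647). ERAP2, a peptidase that trims peptides, was lowest at -0.16 and did not pass (adjusted p = 0.517).

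The promoter windows were searched on both strands for 3 sets of letters in the 250 bases before the RefSeq start, for the 43 members in the RefSeq table. The antioxidant response element core TGACNNNGC was present in 13 of 43 (30.2%), beside 13.2% of 27305 genes with a window. It was in 5 of 11 lower members, 2 of 6 higher members and 6 of 24 that did not pass. The CCAAT box occurred in 20 of 43 (46.5%), beside 37.0% of all genes. The letters GAAANNGAA occurred in 5 of 43 (11.6%), beside 8.41%. They were in 4 of 11 lower members, 0 of 6 higher members and 1 of 24 that did not pass. The 4 lower members were PSMB4, PSME2, PSMG4 and PSMB10, where the match starts 21 bases before the start. The windows of PSMB8 and PSMB9 had 0 matches to these letters. In PSMD12 the TGACNNNGC match starts 165 bases before the start and in PSME4 34 bases. A match is a description of these letters only.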

How the data were processed

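Gene-level estimated counts were deposited by the authors for 6 libraries. Per the file headers, they were made with featureCounts 1.5.0-p1 on exons of an hg19 gene annotation, with mapping quality of at least 2, counting the reverse strand and splitting multi-mapping and multi-overlapping reads into fractions. The submitters' processing notes name HISAT2, whereas the study's methods name tophat2 and HTSeq. Estimated counts were rounded to whole numbers. Library totals were 19562711 to 22014835. Differences were tested in R 4.3.3 with edgeR 4.0.16 (quasi-likelihood test, filterByExpr, TMM scaling, treatment group as the only term) over all 13408 genes kept, with Benjamini-Hochberg adjustment. Calls needed an adjusted p under 0.05, and the fold limit was an absolute log2 fold change of 0.5, as in the study's methods. Alternatives were DESeq2 1.42.0, limma 3.58.1 voom, other scalings and filters, the replicate number as a block, loess offsets (span 0.3) on exon length, and leaving out each library. Offsets on GC content, alone or with length were chosen after seeing the data. The test script was tested on simulated data. Same-numbered libraries correlated at -0.028, 0.033 and -0.011 in their deviations over all genes tested. This gave no sign of pairing by number, but cannot exclude pairing in part of the genes. No 2 libraries agreed within sampling noise, since chi-square per gene was at least 1.89.

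Members and gene lists were chosen with earlier results of these data known. Named were members past the fold limit, PSMB5 to PSMB10, PSME1 to PSME4, PSMF1, PSMG1 to PSMG4, the extremes and smallest p of each group and, of each pathway list, genes past the fold limit, the extremes and POMP, ADRM1, USP14, NFE2L1 and NFE2L2. PSMB1, PSMB2, PSMB3, PSMD4, PSMD6, PSMD10, PSMD11, PSMD14, UBB and COL1A1 were named after their values were seen. Sequences came from RefSeq (GRCh38.p14), which held a window for 43 of 49 members. Coordinates are hg19, as in the files. Some items are not reported here.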

Additional observations from a re-analysis of the deposited data

How the results depend on the processing

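The count of 14 lower members was 9 with DESeq2, 5 with exon length offsets, 4 with length offsets and the replicate block, 4 with exon length and GC content offsets and 6 at an adjusted p under 0.01, and ranged from 6 to 15 when a library was left out (6 without control replicate 2, 7 without SMIP34 replicate 2, 9 without control replicate 1 and 9 without SMIP34 replicate 3). The count of 7 higher members was 12 with library size scaling only, 17 with exon length offsets, 15 with length offsets and the replicate block and 17 with exon length and GC content offsets, and ranged from 4 (without SMIP34 replicate 3) to 8 when a library was left out. The number past the fold limit, 2, became 0 with DESeq2, 0 without genes annotated at several places and 4 at a limit of 0.25, and ranged from 1 (without control replicate 2 or without SMIP34 replicate 2) to 3 when a library was left out. The median of members was 0.052 with length offsets, 0.052 with the replicate block as well and 0.033 with exon length and GC content offsets. The replicate block alone gave 13 lower and 6 higher. By construction the length offsets remove the length trend of each library, and the cause of the shifts in these counts was not tested. Calls over all 13408 genes moved too, from 2306 lower and 2339 higher to 1759 and 1811 with DESeq2. They were 1936 and 2121 with length offsets and the replicate block, and 1978 and 2150 with exon length and GC content offsets.

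Single genes also changed sign. Of those listed here, PSME2 and HLA-B had passed with all libraries and no offsets, and the others had not. With length offsets, with the replicate block added, and with length and GC content offsets, the log2 fold changes were 0.054, 0.054 and 0.072 for PSMB6, 0.020, 0.020 and 0.024 for PSMB7, 0.0033, 0.0027 and 0.014 for PSME2, 0.052, 0.052 and 0.068 for PSMD8, 0.012, 0.012 and 0.026 for PSMD9, 0.043, 0.043 and 0.012 for POMP, -0.0013, -0.00084 and -0.029 for USP14 and -0.023, -0.023 and -0.0055 for NFE2L1. Library size scaling gave 0.0033 for PSME3, 0.0054 for PSMD8 and 6.06e-05 for PSMD9. Upper quartile scaling gave -0.0026 for PSMG2 and -0.0072 for NFE2L1. GC content offsets gave -0.0083 for PSMG2, 0.021 for PSMD8, 0.0054 for PSMD9 and -0.020 for USP14. With a library left out the range was -0.022 to 0.036 for PSMG2, -0.0295 to 0.0079 for PSMD8, -0.053 to 0.017 for PSMD9, -0.070 to 0.0083 for POMP, -0.018 to 0.066 for USP14, -0.0043 to 0.022 for NFE2L1 and -0.21 to 2.22 for HLA-B. In 858 comparisons of named genes, 735 kept sign and side of the threshold, 63 lost the call, 19 gained it and 41 changed sign.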
